A study of Mus musculus with 50 samples.

Results

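The HA ChIP-seq of the series set the binding sites of a tagged EZH1 against a control that holds no tagged protein. *Ezh1/2* dKO mouse ESCs, which lack both H3K27 methyltransferases, were transiently transfected with a pCAG vector for Flag-HA-tagged human EZH1, selected with puromycin for 24 h and subjected to ChIP with an antibody against the HA tag. The same antibody was used on untransfected *Ezh1/2* dKO ESCs, so peaks of that list were called without any HA-tagged EZH1 in the cells. The members described here are the peaks of these lists, taken whole, namely 4429 peaks of the cells with HA-EZH1 and 1291 control peaks. They make up 5720 of the 85249 regions in the 11 ChIP-seq lists used here, and 2 of the 50 samples of the series. Each list rests on 1 library and gives positions only, so no peak height, depth or replicate error is known for the HA ChIP, and no test between the lists could be made.

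The other lists come from ESC lines of the same parent, E14 (E14TG2a). The WT line is unedited, the *Ezh2* KO line lacks *Ezh2* and keeps *Ezh1*, and the *Ezh1/2* dKO line lacks both, each gene having been cut out whole with CRISPR/Cas9 in single clones. The *Ezh2* Y726D line carries a point mutation that was edited into an *Ezh1* KO background. SUZ12 and H3K27me3 peaks of WT, *Ezh2* KO and *Ezh1/2* dKO cells, SUZ12 peaks of *Ezh2* Y726D cells and H3K27ac peaks of *Ezh2* KO and *Ezh1/2* dKO cells were taken with a peak p no higher than 1e-10, with 1 library each. RNA-seq of the *Ezh2* Y726D line, WT cells and both knockout lines had 2 libraries per line, and their labels do not say whether these were separate cultures. The study's reporting form speaks of biological replicates without saying what they were for RNA-seq, so the p-values measure the spread between these libraries, which may be technical. All *Ezh1/2* dKO lists other than the HA-EZH1 one, and the *Ezh1/2* dKO RNA, are from cells without the vector. SUZ12, H3K27me3 and RNA of the cells with HA-EZH1 were not analysed here. The vector and the puromycin selection also separate the cells with HA-EZH1 from the control and cannot be told apart from the tagged protein.

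EZH1 and EZH2 are alternative catalytic subunits of PRC2, the Polycomb complex that methylates lysine 27 of histone H3. SUZ12 and EED are its core partners, and H3K27me3, its end product, marks silent developmental genes in ESCs. PRC2 in ESCs is found mainly at CpG islands of genes for transcription factors and signalling ligands, where PRC1, which holds CBX proteins that bind H3K27me3, also sits. H3K27ac is a mark of active promoters and enhancers on the same residue, and a lysine cannot carry both.

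The DNA under both kinds of HA site is shown first, since they differed in CpG content and in a short run of letters. The first set is the central 200 bases of the widest HA-EZH1 peak in 3 of the 5 widest HA-EZH1 domains, those whose centre lay outside annotated exons, with CpGs in capitals. All are from the plus strand of mm9 (NCBIM37). The *Lmx1b* stretch is chr2:33487265-33487464, in an intron of that gene, and the *Ebf3* stretch is chr7:144509911-144510110, outside protein-coding genes. The *Six3* stretch is chr17:86015712-86015911, in an intron of *Six3*.

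Lmx1b: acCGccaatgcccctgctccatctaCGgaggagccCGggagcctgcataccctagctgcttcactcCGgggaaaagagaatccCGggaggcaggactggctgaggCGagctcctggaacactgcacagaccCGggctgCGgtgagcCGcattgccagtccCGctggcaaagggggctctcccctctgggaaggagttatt

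Ebf3: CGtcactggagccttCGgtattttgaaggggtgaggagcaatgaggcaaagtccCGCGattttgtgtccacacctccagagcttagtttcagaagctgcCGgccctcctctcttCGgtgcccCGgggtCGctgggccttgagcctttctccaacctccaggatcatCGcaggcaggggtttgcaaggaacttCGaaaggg

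Six3: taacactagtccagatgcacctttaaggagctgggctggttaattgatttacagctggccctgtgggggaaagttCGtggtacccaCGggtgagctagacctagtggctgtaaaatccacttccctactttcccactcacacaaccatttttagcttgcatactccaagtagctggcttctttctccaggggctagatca

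The *Lmx1b* and *Ebf3* stretches each hold 10 CpGs and are 64.0% and 58.0% G or C. The *Six3* stretch holds 2 CpGs and is 49.0% G or C, so the middle of a very wide peak need not be CpG-rich. The second set is the central 100 bases of 4 narrower sites, with the first match to the letters CNNCAGGGGGC or their reverse complement GCCCCCTGNNG in capitals, where N is any base. The letters were read from the genome under the 587 control peaks outside the HA-EZH1 list. Of all runs of 8 bases, CAGGGGGC on either strand had the greatest excess in the central 100 bases of those peaks, in 62 of them against a mean of 1.5 in stretches 1000 bp to either side. Its 243 best matches with at most 1 mismatch were aligned, and a letter was kept where at least 80% of them had it. The result is part of the core of the CTCF motif, and a match is a description of the DNA, not of what binds it. Since those 587 peaks gave the letters, their own share is no evidence. Shown are the widest peaks of their kind with a match in these 100 bases outside annotated exons. The sites with both a control and an HA-EZH1 peak are chr4:137280783-137280882, in an intron of *Rap1gap*, and chr4:128790350-128790449, in an intron of *Hpca*. The control peak outside the HA-EZH1 list is at chr3:92857184-92857283, outside protein-coding genes. The HA-EZH1 peak without a control, SUZ12 or H3K27me3 peak is at chr5:114578256-114578355, within 5 kb of TSSs of *Alkbh2* and *Ung*.

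Control and HA-EZH1, Rap1gap: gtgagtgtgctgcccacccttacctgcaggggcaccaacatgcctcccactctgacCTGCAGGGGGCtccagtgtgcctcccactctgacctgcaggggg

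Control and HA-EZH1, Hpca: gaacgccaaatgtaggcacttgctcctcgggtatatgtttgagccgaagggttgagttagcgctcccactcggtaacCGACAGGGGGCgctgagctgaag

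Control alone, chromosome 3: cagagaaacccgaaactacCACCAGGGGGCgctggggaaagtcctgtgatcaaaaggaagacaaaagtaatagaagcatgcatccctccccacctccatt

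HA-EZH1 alone, Alkbh2 and Ung: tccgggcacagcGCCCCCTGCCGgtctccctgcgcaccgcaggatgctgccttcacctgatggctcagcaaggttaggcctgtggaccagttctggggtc

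HA-EZH1 peaks were wider than control peaks and covered more of the genome. Their median width was 579 bp, with a range from 200 to 10556 bp and 4.03 Mb covered in all. The control peaks had a median of 298 bp, a maximum of 3456 bp and 0.432 Mb. Those HA-EZH1 peaks that overlapped a control peak, 706 in number, had a median of 362 bp, whereas the 3723 not shared had a median of 694 bp. Widths of peaks called on libraries of unknown depth are not on one scale, so these are values of 2 lists and not a measured difference in binding. Control peaks also differed among themselves, since the 704 that overlapped an HA-EZH1 peak had a median of 345.5 bp and the 587 that did not had one of 256 bp.

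**Figure D1:**
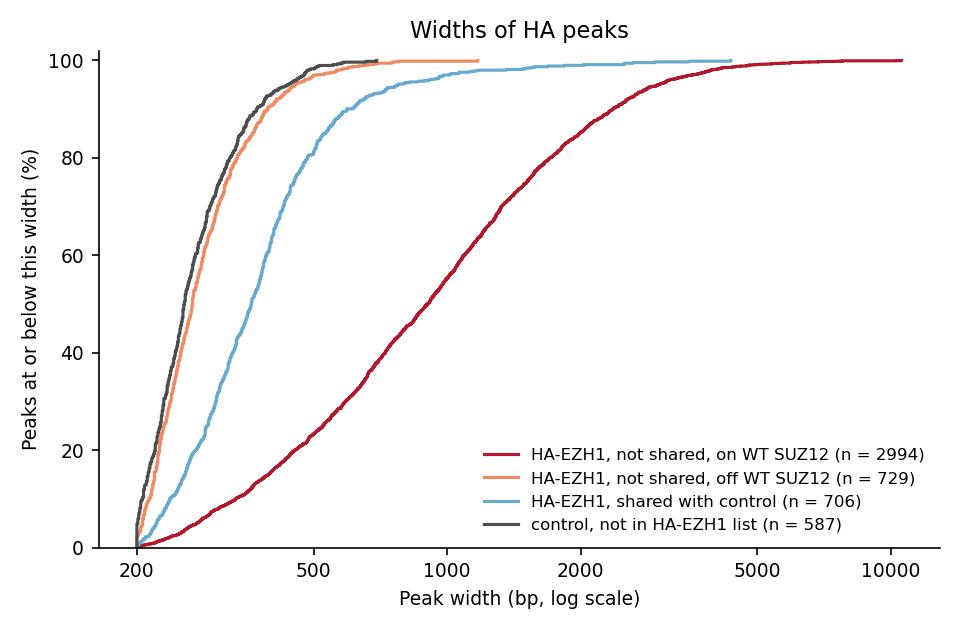
Cumulative share of peaks (vertical axis, %) at or below each width (horizontal axis, bp, log scale) for classes of HA-EZH1 and control peaks, with 1 library behind each list. The 2994 unshared HA-EZH1 peaks on a WT SUZ12 peak lie to the right, with a median of 902 bp, while the 729 off WT SUZ12, with a median of 267 bp, lie near the control peaks.

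Width sorted the HA-EZH1 peaks by their relation to PRC2. The peaks were split into 5 bins of equal number by width, and the share on a WT SUZ12 peak was 24.8% in the narrowest bin (200 to 294 bp), 41.2% and 79.7% in the next ones, 99.0% in the fourth and 100% (886 of 886) in the widest (1356 to 10556 bp). The share with a control peak was 21.9% in the narrowest bin, 36.2% in the second, 17.2% in the third, 2.82% in the fourth and 1.58% in the widest. A wider peak has more bases in which to overlap another peak, so the rise with SUZ12 is in part built in. How much of it this makes up was not tested. SUZ12 peaks that stayed in *Ezh2* KO cells, where EZH1 is the only methyltransferase of PRC2, were concentrated still more on wide peaks. Their share was 1.58% in the narrowest bin, 13.3% in the third and 85.2% (95% CI 82.7 to 87.4) in the widest. Confidence intervals here are Wilson intervals and cover counting error only.

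The unshared HA-EZH1 peaks thus fell into a set of 2994 on WT SUZ12 peaks and a set of 729 off them. The 2994 had a median width of 902 bp and the 729 one of 267 bp, with a maximum of 1172 bp. Of the 2994, 1292 lay on SUZ12 called in *Ezh2* KO cells too and had a median width of 1527.5 bp, against 614.5 bp for the 1702 with WT SUZ12 only. H3K27me3 of *Ezh2* KO cells was on 100% of the 1292 and on 93.9% (95% CI 92.7 to 95.0) of the 1702. In the set off WT SUZ12, 12.2% (95% CI 10 to 14.8) had H3K27me3 in *Ezh2* KO cells and 8.09% had it in WT cells. Of all control peaks 5.73% (95% CI 4.59 to 7.14) had *Ezh2* KO H3K27me3, and of those outside the HA-EZH1 list 2.04% (95% CI 1.17 to 3.54), both below the 729.

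Their places in the genome differed in the same way. Of the unshared peaks on WT SUZ12, 70.2% (95% CI 68.5 to 71.8) reached within 1 kb of a TSS of a protein-coding gene, and the median distance from peak centre to TSS was 719 bp. A further 11.2% were in exons farther away, 4.71% in introns and 13.9% outside protein-coding genes. Of the unshared peaks off WT SUZ12, 23.9% were within 1 kb of a TSS, with a median distance of 8686 bp, and of the control peaks 24.9%, with a median of 8892 bp. Positions outside protein-coding genes took 36.8% of the former and 41.0% of the latter. H3K27ac of *Ezh2* KO cells was on 1.14% of the unshared peaks on SUZ12, 9.74% of those off it and 13.7% of the control peaks.

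The 5 widest control peaks all carried HA-EZH1 peaks as well. The widest, chr17:39980025-39983480, is 3456 bp long, lies outside protein-coding genes and has another of them, chr17:39984713-39985777, beside it. Genes of other types were not looked at for these places. The next lies at the promoter of *Mid1*, which encodes a ubiquitin ligase of microtubules, at chrX:166415986-166417829 (1844 bp), and a further one at *Gm17379*, chrX:166424453-166425781 (1329 bp). The last, chr9:121606354-121607323 (970 bp), lies in an intron of *Sec22c*. None of the 5 is a gene of the developmental lists below.

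Base composition and the counted letters differed between the peaks on SUZ12 and the other HA peaks, without parting them cleanly. The quartiles of CpG number in the central 300 bases were 14 and 29 for unshared peaks on WT SUZ12 and 5 and 20 for shared ones. In the central 300 bases, unshared HA-EZH1 peaks on WT SUZ12 had a median of 21 CpGs and 63.7% G or C, and 1.14% (34 of 2994, 95% CI 0.814 to 1.58) held the letters. Those off WT SUZ12 had 7 CpGs and 54.3% G or C, and 12.3% (90 of 729, 95% CI 10.2 to 14.9) held them. HA-EZH1 peaks with a control peak had 10 CpGs and 18.3% with the letters (129 of 706, 95% CI 15.6 to 21.3). The control peaks that gave the letters had 7 CpGs and 16.2% with them. For comparison, the letters stood in 0.149% of every 300-base window of the genome, in 1.19% of windows around a TSS of a protein-coding gene, in 0.907% of WT SUZ12 peaks and in 0.46% of *Ezh1/2* dKO H3K27ac peaks. Among the 729 peaks off WT SUZ12, the share was 3.37% (3 of 89, 95% CI 1.15 to 9.45) where *Ezh2* KO cells had H3K27me3 and 13.6% (86 of 632, 95% CI 11.2 to 16.5) where neither line had it. The 89 also had a higher median CpG number, 14 against 7.

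The letters also sat at the middle of those peaks. A match began in the 50 bases before the centre in 5.35% of the unshared peaks off SUZ12 and in the 50 bases after it in 3.98%, but in 1.37% between 50 and 100 bases before it. HA-EZH1 peaks with a control peak gave 6.09% and 6.37% in the central bins. On WT SUZ12 the central bins held 0.167% and 0.2%, with no rise toward the centre. CpG density at the centre of the peaks on SUZ12 was 7.29 to 7.33 per 100 bases and was 2.03 per 100 bases between 1900 and 2000 bp downstream on the plus strand.

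**Figure D2:**
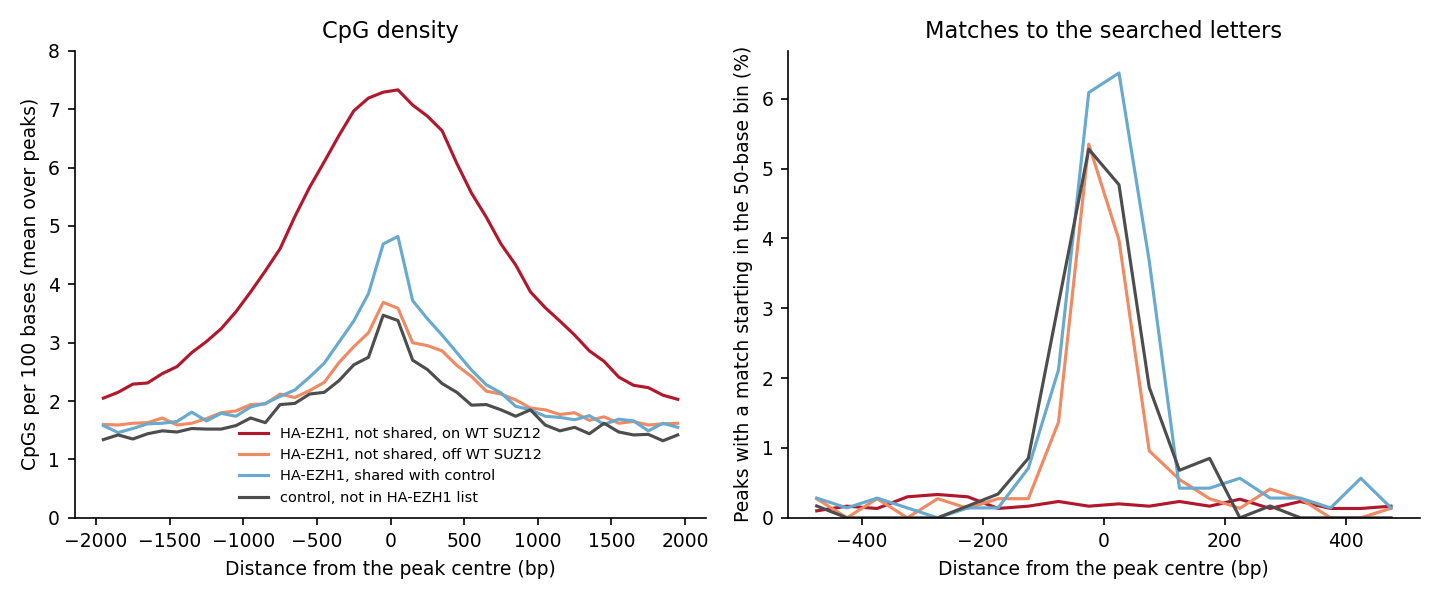
Left, mean number of CpGs per 100 bases against distance from the peak centre (bp); right, share of peaks (%) with a match to the searched letters starting in each 50-base bin. Lines are 4 classes of HA peaks, and the letters rise to between 3.98% and 6.37% of peaks at the centre in the 3 classes that are shared, off WT SUZ12 or control alone, the last being the class that gave the letters, while the CpG density is highest for peaks on WT SUZ12.

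Which WT SUZ12 peaks carried HA-EZH1 varied with the strength of the SUZ12 peak. WT SUZ12 peaks were split into 5 bins by their −log10 p, and an HA-EZH1 peak lay on 11.4% of the weakest bin (95% CI 9.62 to 13.4), 23.3%, 45% and 80.5% of the next ones and 98.6% (1066 of 1081, 95% CI 97.7 to 99.2) of the strongest. Control peaks lay on 0.463% to 2.13% of each bin, with no such rise. The median width of the SUZ12 peaks also rose with strength, from 379 bp to 2082 bp. For SUZ12 of *Ezh2* KO cells the share was already 93.7% (95% CI 90.4 to 95.9) in the weakest bin and 100% (316 of 316) in the strongest, although the median width of the weakest bin was 403 bp, close to that of the weakest WT bin. For SUZ12 of *Ezh2* Y726D cells it ran from 47.0% to 93.2%. The HA-EZH1 list therefore held nearly every site at which SUZ12 was called in *Ezh2* KO cells, in the weak and strong bins of that list, and mostly the strong ones of WT cells. Strength was ranked within each list, so a bin of one list is not on the scale of another.

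**Figure D3:**
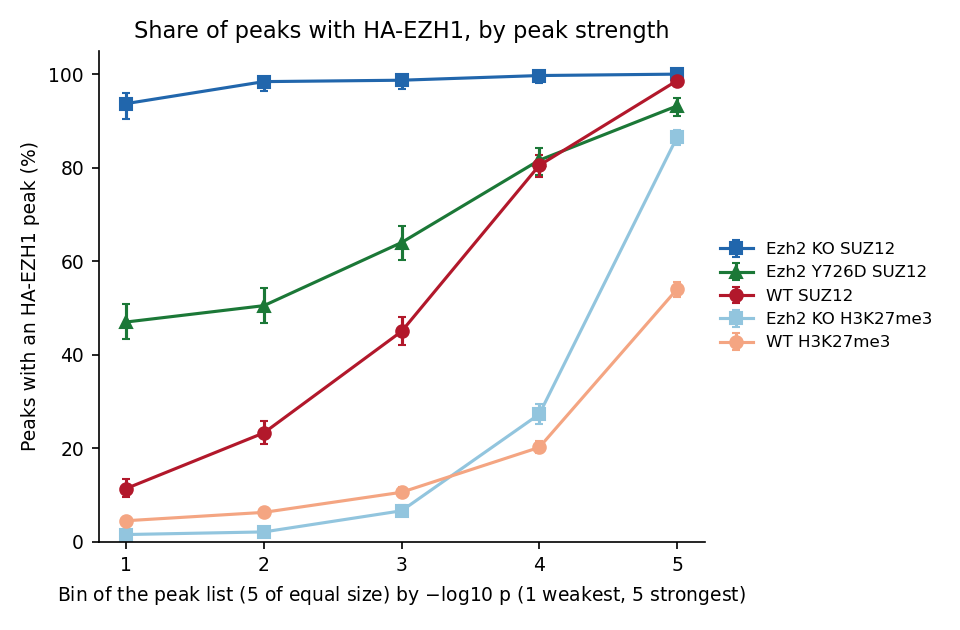
Share of peaks with an HA-EZH1 peak (vertical axis, %) by bin of each list, 5 of equal number ranked by −log10 p (horizontal axis, 1 weakest to 5 strongest), with Wilson 95% intervals, for SUZ12 and H3K27me3 lists. The line of *Ezh2* KO SUZ12 is flat between 93.7% and 100%, while WT SUZ12 rises from 11.4% to 98.6% and *Ezh2* KO H3K27me3 from 1.56% to 86.5%.

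The WT SUZ12 peaks with and without HA-EZH1 were close in base composition, with no test made. The 2797 with HA-EZH1 had a median of 63.0% G or C and 21 CpGs in the central 300 bases, and the 2607 without had 63.0% and 20 CpGs. They differed in width, 1333 bp against 555 bp, and in −log10 p, 42.3 against 15.1. A SUZ12 peak of *Ezh2* KO cells was on 44.7% (1250 of 2797) of the first and on 0.729% (19 of 2607, 95% CI 0.467 to 1.14) of the second. H3K27me3 of *Ezh2* KO cells was on 96.6% and 62.4%. H3K27ac of *Ezh1/2* dKO cells lay on 7.22% (95% CI 6.32 to 8.24) of those with HA-EZH1 and 11.4% (95% CI 10.2 to 12.7) of those without. H3K27ac of *Ezh2* KO cells lay on 1.5% and 6.6%.

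Where they overlapped, unshared HA-EZH1 peaks were narrower than SUZ12 peaks of WT cells (medians of 902 and 1333 bp) and wider than those of *Ezh2* KO cells (1526 and 820.5 bp). Over the whole lists the last order was the reverse, with 579 bp for HA-EZH1 and 806.5 bp for *Ezh2* KO SUZ12. At the overlaps, HA-EZH1 covered 76.2% of the bases of WT SUZ12 peaks and held 93.9% of their summits, and the median distance from a SUZ12 summit to the middle of the HA-EZH1 peak was 150.5 bp. Conversely, 96.9% of the bases of the unshared HA-EZH1 peaks there lay within WT SUZ12. Of the 2797 SUZ12 peaks, 2468 held 1 HA-EZH1 peak and 329 held several, at most 5. Of *Ezh2* KO SUZ12 peaks HA-EZH1 covered 98.1% of the bases and 99.0% of the summits. Only 67.3% of the bases of the unshared HA-EZH1 peaks there were within *Ezh2* KO SUZ12. The 317 SUZ12 peaks left in *Ezh1/2* dKO cells were short, with a median of 403 bp, and 301 of them (95.0%, 95% CI 92 to 96.9) had an HA-EZH1 peak. The unshared HA-EZH1 peaks at those sites had a median of 2203.5 bp. All HA-EZH1 peaks, shared or not, covered 98.6% of the bases of the 301. The *Ezh1/2* dKO SUZ12 peaks were also the most CpG-rich, with a median of 31 CpGs and 69.0% G or C. Control HA peaks lay on 5.36% of them (95% CI 3.37 to 8.42), against 1.09% of WT SUZ12 peaks.

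H3K27me3 around the HA-EZH1 peaks reached beyond them in both lines. Inside the 2994 unshared peaks on WT SUZ12, 82.8% of the bases were within an H3K27me3 peak of WT cells and 97.4% within one of *Ezh2* KO cells. In the first 500 bp outside, the covered share was 57.8% in WT and 85.0% in *Ezh2* KO cells, and from 500 to 1000 bp it was 61.9% and 71.9%. From 1000 to 2000 bp the lines were close, at 49.1% and 48.0%, and from 4000 to 5000 bp they were at 18.5% and 17.8%. SUZ12 fell off faster. WT SUZ12 covered 50.1% of the bases in the first 500 bp and 30.3% in the next, and *Ezh2* KO SUZ12 covered 44.0% of the bases inside and 6.23% of those in the first 500 bp outside. H3K27ac of *Ezh1/2* dKO cells covered 2.84% of the bases inside the peaks and under 1% outside them. These are covered lengths of peaks called in 1 library per line, and the height of the mark was not compared. The stretches outside were not cleared of other HA-EZH1 peaks, which covered 14.6% of the first 500 bp and 20.7% from 500 to 1000 bp. The H3K27me3 lists are not on one scale, since −log10 p reached 541 in *Ezh2* KO and 72.3 in WT cells. The widest H3K27me3 peak was 83415 bp in *Ezh2* KO and 10983 bp in WT cells. From the ratio of H3K27me3 density outside to inside SUZ12 peaks, the study reported reduced spreading in *Ezh2* KO cells. Covered length does not measure that ratio.

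**Figure D4:**
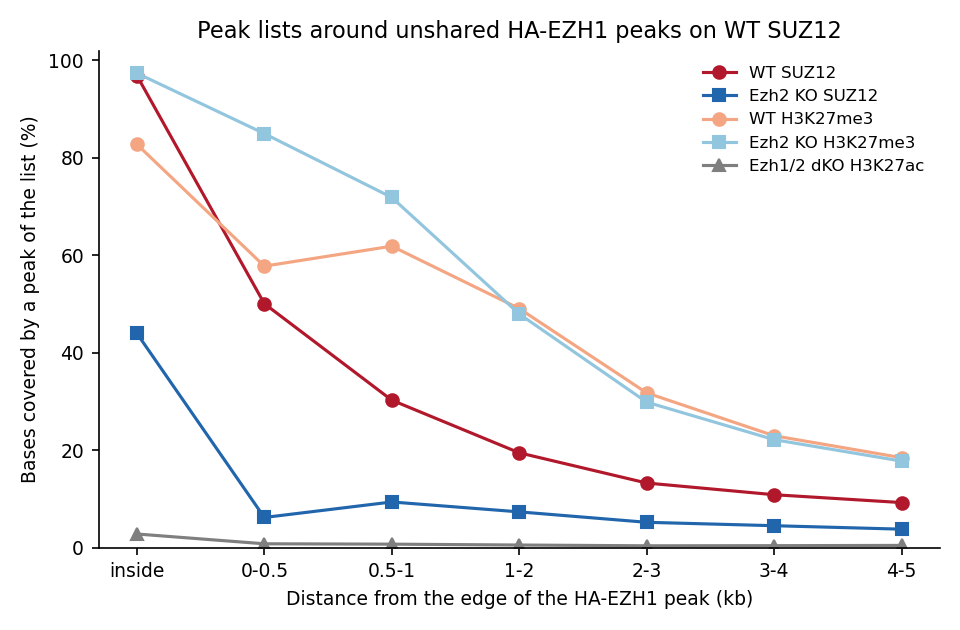
Share of bases covered by the peaks of each list (vertical axis, %) inside 2994 unshared HA-EZH1 peaks on WT SUZ12 and at increasing distance from their edges (horizontal axis, kb). *Ezh2* KO H3K27me3 is highest inside, at 97.4%, and lies with WT H3K27me3 from 1 kb outward, while both SUZ12 lists drop within the first 500 bp.

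Nearly all H3K27me3 peaks of WT cells with HA-EZH1 were also called in *Ezh2* KO cells. Of the 3138 WT H3K27me3 peaks with an unshared HA-EZH1 peak, 97.6% (3063, 95% CI 97.0 to 98.1) had an *Ezh2* KO H3K27me3 peak, against 39.3% (5345 of 13616) of those without. On WT SUZ12 peaks alone the shares were 97.8% (3002 of 3071) and 75% (1581 of 2109, 95% CI 73.1 to 76.8). The peaks with HA-EZH1 were also wider, with medians of 1462 bp and 899 bp in the last comparison, and width was not held equal. Seen from the HA-EZH1 side, 2682 of the 3723 unshared peaks (72.0%) had H3K27me3 in both lines, and 98.1% of these lay on WT SUZ12. A further 298 had it in *Ezh2* KO cells only, with a median width of 399.5 bp and 87.2% on WT SUZ12, and 72 in WT cells only. The remaining 671 had it in neither line. Their median width was 265 bp, and 5.81% lay on WT SUZ12.

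With peaks up to 1 kb apart joined, HA-EZH1 formed 3482 domains, of which 2782 held no control peak. Their median length was 962.5 bp, and 95 of them were at least 5 kb long. SUZ12 of *Ezh2* KO cells was in 4.96% of domains under 1 kb, 51.4% of those of 1 to 2 kb, 86.9% of those of 2 to 5 kb and 96.8% (92 of 95) of those of at least 5 kb. SUZ12 that remained in *Ezh1/2* dKO cells followed the same order at a lower level, with 1.05%, 8.57%, 21.5% and 50.5% (48 of 95, 95% CI 40.6 to 60.4). The longer domains have more room for an overlap.

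The 10 widest domains lay at genes for transcription factors of the nervous system and of patterning and at *Cbx8*. The widest, at *Lhx5*, a LIM homeobox gene of the forebrain, spans 15373 bp (chr5:120875696-120891068) in 7 peaks, the longest of 10296 bp. *Lmx1b*, a LIM homeobox gene of limb and midbrain, had 14865 bp (chr2:33485398-33500262), *Ebf3*, a neuronal helix-loop-helix factor, 14467 bp (chr7:144500552-144515018), and *Cbx8*, which encodes a chromodomain protein of PRC1, 14181 bp (chr11:118895511-118909691). *Six3*, a forebrain and eye factor, had 13619 bp, *Tbx2* 13572 bp, *Pax7* 13321 bp, *Otx1* 12127 bp, *Skor1* 11837 bp and *Nkx2-2* 11783 bp. In the *Lhx5* domain WT SUZ12 covered 13421 bp, *Ezh2* KO SUZ12 10674 bp and *Ezh1/2* dKO SUZ12 253 bp. *Ezh2* KO H3K27me3 covered all 15373 bp of it. None of the 10 domains held an H3K27ac peak of *Ezh1/2* dKO cells, and no *Ezh1/2* dKO SUZ12 peak was listed in those at *Cbx8*, *Tbx2* and *Otx1*, while the *Skor1* domain had 3614 bp of it.

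HA-EZH1 without a control peak lay within 5 kb of a TSS of 1986 of 22359 protein-coding genes (8.88%, 95% CI 8.52 to 9.26). A control peak lay at 578 genes, of which 375 also had HA-EZH1. Of the 1986 genes, 89.8% had a WT SUZ12 peak, 44.8% an *Ezh2* KO SUZ12 peak, 90% WT H3K27me3 and 87.7% *Ezh2* KO H3K27me3. Of the genes with a control peak, 22.0% had a WT SUZ12 peak and 60.4% (95% CI 56.3 to 64.3) had H3K27ac in *Ezh2* KO cells, a mark present at 12.5% of the HA-EZH1 genes and at 36.9% of all genes. Genes with SUZ12 in both WT and *Ezh2* KO cells had HA-EZH1 without control in 95.6% of cases (889 of 930), those with SUZ12 in WT only in 39.8% (894 of 2248, 95% CI 37.8 to 41.8). Genes with H3K27me3 in both lines had it in 59.0% of cases, those with H3K27me3 in WT only in 6.45% (79 of 1225) and those with neither mark in either line in 0.875% (155 of 17713).

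H3K27ac at these genes was more often listed in *Ezh1/2* dKO than in *Ezh2* KO cells. Of the 1986 genes, 158 (7.96%, 95% CI 6.85 to 9.23) had an H3K27ac peak in *Ezh1/2* dKO cells only and 73 (3.68%, 95% CI 2.93 to 4.6) in *Ezh2* KO cells only. Over all protein-coding genes the order was the reverse, with 2.54% in *Ezh1/2* dKO only and 11.7% in *Ezh2* KO only. At 1580 of the 1986 genes (79.6%) neither line had an H3K27ac peak. The lists differ in length, 17618 peaks in *Ezh1/2* dKO and 25483 in *Ezh2* KO cells, and each comes from 1 library.

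Of 15 Polycomb loci, 14 had HA-EZH1 and none had a control peak within the gene and 10 kb on either side. The study shows these loci and picked them on these samples, so their coverage is not independent evidence. HA-EZH1 covered a median of 7806 bp per locus. The *Hoxa10* and *Hoxa7* loci, which overlap in the *Hoxa* cluster on chromosome 6, had 17443 bp and 17241 bp, *Lhx5* 14099 bp, *Hoxa11* 13262 bp and *Hoxd9* 12584 bp. *Wnt5a*, a secreted ligand, had 6467 bp and *Cdx2*, a trophectoderm and gut factor, 3947 bp. *Olig3*, a helix-loop-helix factor of the spinal cord, had 852 bp. *Mmp25*, a membrane metalloproteinase gene, had none, with 1031 bp of WT SUZ12. WT SUZ12 covered more than HA-EZH1 in 15 of 15 loci, and *Ezh2* KO SUZ12 covered less in each of the 14 with HA-EZH1 and was not listed in *Olig3* and *Mmp25*.

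Developmental transcription factor families carried HA-EZH1 at most members. All 27 genes of the paired, LIM and sine oculis homeobox list had it without a control peak, with a median of 5846 bp around their TSSs and the most at *Six3* (13177 bp), *Lhx2* (11947 bp) and *Pax6* (11046 bp), a regulator of eye and forebrain. Of 6 GATA factors 5 had it, with *Gata2*, a blood progenitor factor, at 8802 bp, and the exception was *Gata1*. Forkhead factors had it at 16 of 28, T-box factors at 11 of 16, Sox factors at 12 of 17 and tissue helix-loop-helix factors at 19 of 29. Leading members were *Foxf2* (6707 bp), *Tbx1* (9707 bp), *Sox14* (4601 bp) and *Olig2* (6752 bp). Ligand genes had it at 16 of 19 Wnts, led by *Wnt7b* (7111 bp), and at 11 of 24 BMP, GDF, Nodal and hedgehog genes, led by *Shh* (4466 bp).

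The 4 Hox clusters had HA-EZH1 at most of their genes, but the lists of *Ezh2* KO cells differed between them. *Hoxa* had it at 10 of 11 genes, *Hoxb* at 8 of 10 (not *Hoxb1* and *Hoxb13*), and *Hoxc* and *Hoxd* at 9 of 9 each. SUZ12 of *Ezh2* KO cells was listed at 10 *Hoxa*, 7 *Hoxb* and 8 *Hoxd* genes and at 0 of 9 *Hoxc* genes. H3K27me3 of *Ezh2* KO cells was at every *Hoxa*, *Hoxb* and *Hoxd* gene and at 6 of 9 *Hoxc* genes. *Hoxc6* had 4750 bp of HA-EZH1 and 18297 bp of WT H3K27me3 around its TSSs and 782 bp of *Ezh2* KO H3K27me3. *Hoxc10* had 1631 bp of HA-EZH1, 9249 bp of WT H3K27me3 and none in *Ezh2* KO cells. By contrast *Hoxa10* had 8409 bp of HA-EZH1, with H3K27me3 over 14928 bp (WT) and 15916 bp (*Ezh2* KO). Neighbouring Hox genes share peaks within these windows, so the genes of a cluster are not separate observations.

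Ribosomal protein genes, which ESCs express, had no member with HA-EZH1, against 8.88% of all genes, while other lists outside the developmental families were mixed. Of 48 cytosolic ribosomal protein genes none had it, although all 48 had H3K27ac in both lines, and 1 (*Rps15*) had a control peak. Of 17 pluripotency factors 1 had HA-EZH1 (5.88%), close to the share of all genes. It was *Esrrb*, an orphan nuclear receptor, with 1737 bp, 2308 bp of WT SUZ12 and 6612 bp of *Ezh1/2* dKO H3K27ac. Of 11 PRC2 subunit genes *Phf19*, an accessory subunit, had HA-EZH1 (936 bp), a share of 9.09%. PRC1 genes with it included *Cbx8* (9298 bp), *Bmi1* (765 bp) and *Cbx2* (296 bp). Of 7 cyclin-dependent kinase inhibitors 3 (42.9%) had it without a control peak, and *Cdkn1a* had a control peak. ESC markers gave 1 of 6 (*Esrrb*) and markers of fibroblasts and differentiated cells 3 of 8 (37.5%), the endoderm factors *Gata4*, *Gata6* and *Sox17*.

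HA-EZH1 peaks were sparse on the X chromosome, with 0.318 per Mb, against 1.17 per Mb on chromosome 14, the autosome with the fewest, and 2.82 per Mb on chromosome 19. Control peaks were sparse there too, with 0.09 per Mb against at least 0.213 on each autosome. WT SUZ12 peaks with HA-EZH1 were 37.3% of those on X (44 of 118, 95% CI 29.1 to 46.3) and 52.1% of those on autosomes (2753 of 5286). Among the autosomes this share ran from 45.2% on chromosome 9 to 62.7% on chromosome 16. The part of X copy number in these values was not tested.

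RNA-seq shows what the genes with HA-EZH1 did in lines that had lost EZH2 or both enzymes. The 8 libraries held 3604123 to 5181553 reads. *Ezh1* RNA, at 372 and 378 normalized counts in *Ezh2* KO cells, was at 14 and 20.4 in *Ezh1/2* dKO cells, and *Ezh2*, at 598 and 546 in WT cells, was at most 1.78 in *Ezh2* KO and *Ezh1/2* dKO cells. The summed level of 6 ESC markers was between 7308 and 8651 in all 8 libraries. The summed level of 7 markers of other cells, mostly *Vim*, ran from 520.7 to 1778 and was 685 to 886.1 in *Ezh1/2* dKO, 758 to 1241 in *Ezh2* KO and 926.2 to 1778 in WT cells. Its part in the results below was not tested. In bulk RNA a change in the number of expressing cells and a change in RNA per cell cannot be told apart. Of the 1739 HA-EZH1 genes in the table, 1036 (59.6%) had a mean of at least 5 normalized counts and were tested, against 76.8% of all genes.

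A minority of the HA-EZH1 genes rose in *Ezh1/2* dKO cells relative to *Ezh2* KO cells, lines that differ in *Ezh1*, and none was called lower. Differences between the clones of these lines cannot be told apart from the loss of *Ezh1*. By limma at an adjusted p under 0.1 and a fold of at least 2, 179 of the 1036 tested (17.3%) were higher and 0 lower. Over all 13872 genes tested 3.52% were higher and 0.0577% lower. Since the filter keeps genes that are high in any line, the same count without it was 212 of 1739 (12.2%), against 3.29% of all genes. Both *Ezh1/2* dKO libraries stood above both *Ezh2* KO libraries for 1019 of the 1739 genes, 58.6%, against 28.4% of all genes, and below for 115, 6.61% against 22.6%. The median log2 difference over the 1739 genes was 0.99, or 0.89 with genes at 0 reads in one line held at a floor of 3 reads, and 0.04 over all genes. With quantile normalization the calls fell to 61 (5.89%, against 1.27% of all genes) and the median difference of the tested genes from 0.98 to 0.43. A minimum mean of 20 gave 96 of 608 tested (15.8%, against 2.26% of all genes). With only the 4 libraries compared the calls rose to 374 (36.1%, against 8.51% of all genes). The calls fell strongly when 1 *Ezh1/2* dKO or 1 *Ezh2* KO library was left out. The median log2 difference of the tested genes was 0.9 and 1.02 without *Ezh1/2* dKO replicates 1 and 2. It was 0.86 and 0.97 without *Ezh2* KO replicates 1 and 2. All 179 genes had both *Ezh1/2* dKO libraries above both *Ezh2* KO libraries, so their sign could not change in these fits. The *Ezh1/2* dKO libraries also stood apart in the number of genes above 0, with 17042 and 17104, against 15661 and 15978 in *Ezh2* KO cells and at most 16399 in the other libraries, and the part of this in the result was not tested.

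Among the HA-EZH1 genes, those with SUZ12 in both WT and *Ezh2* KO cells were called most often in this comparison, with 107 of 363 tested and 132 of 759 without the filter (17.4%). Those with SUZ12 in WT only gave 69 of 512 tested and 77 of 793 without the filter (9.71%). Those without WT SUZ12 gave 3 of 161 tested and 3 of 187 without the filter (1.6%), below the 3.29% of all genes. WT SUZ12 genes without HA-EZH1 gave 95 of 900 tested and 97 of 1153 without the filter (8.41%). Genes with a control HA peak gave 9 of 476 tested and 10 of 541 without the filter (1.85%). Against WT the first and second sets were close, with 58 of 363 and 77 of 512 called, or 7.38% and 8.2% without the filter, and the median log2 difference between *Ezh2* KO and WT was -0.57 in the first and -0.07 in the second. No test of the differences between these sets was made.

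The strongest calls were a pair of Hox genes and 3 genes of other functions. *Hoxa10*, a posterior patterning factor, had 226 and 223 normalized counts in *Ezh1/2* dKO, 5.23 and 0 in *Ezh2* KO and 2.67 and 0 in WT cells, so both *Ezh1/2* dKO libraries lay far above the other 4. The log2 difference from *Ezh2* KO was 6.50 ± 0.83 (SE; limma adjusted p = 0.00635). *Arg2*, a mitochondrial arginase, had 173 and 234 in *Ezh1/2* dKO, 4.18 and 0 in *Ezh2* KO and 44 and 25 in WT cells, so the *Ezh2* KO line was the lowest of the 3. The *Ezh2* Y726D line, which also lacks *Ezh1*, had 424 and 493 for *Hoxa10*, above *Ezh1/2* dKO, but 30.3 and 20.1 for *Arg2*, near WT. *Cacna1s*, a muscle calcium channel subunit, showed the same order, with 95.6 and 156, then 1.05 and 1.94, then 42.7 and 17.3, and 12.5 and 22.4 in *Ezh2* Y726D cells. *Cacna1s* was 82.8-fold higher in *Ezh1/2* dKO than in *Ezh2* KO cells, with a counting interval of 28.1 to 404 on 3 reads in the latter. *Chst11*, a chondroitin sulfotransferase, was at 0 in both *Ezh2* KO libraries and 41.2 and 38.2 in *Ezh1/2* dKO, at least 26.3-fold higher against a floor of 3 reads over the *Ezh2* KO pair. *Hoxa9* had 61 and 50.6 in *Ezh1/2* dKO against 1.05 and 0 in *Ezh2* KO cells.

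PRC1 genes with HA-EZH1 were among the genes that rose. *Cbx8* had 73.4 and 134 normalized counts in *Ezh1/2* dKO, 5.23 and 6.77 in *Ezh2* KO and 18.7 and 3.85 in WT cells, a log2 difference from *Ezh2* KO of 3.85 ± 0.63 (limma adjusted p = 0.0185). *Cbx2* had 335 and 374 against 146 and 166, with a difference of 1.18 ± 0.22 (limma adjusted p = 0.0302). *Bmi1* rose against WT, with 162 and 173 against 50.7 and 77, by 1.41 ± 0.28 (limma adjusted p = 0.0391), and its difference from *Ezh2* KO was 0.58 ± 0.28 (limma adjusted p = 0.438). In *Ezh2* KO cells none of these 3 genes passed the test against WT.

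Among the gene lists, counted over the members tested with or without HA-EZH1, calls against *Ezh2* KO were upward in each developmental list that had any, where 3.52% of all genes were called higher. *Hoxa* gave 5 of 6 tested, *Hoxd* 3 of 5, *Hoxb* 1 of 3 and *Hoxc* 0 of 6. The filter keeps genes that are high in any line, so members near 0 in WT and *Ezh2* KO cells were tested only through other lines. RNA-seq covered 11 *Hoxa*, 9 *Hoxd*, 7 *Hoxb*, 9 *Hoxc* and 20 tissue helix-loop-helix genes. The shares of tested members are therefore not shares of the lists. Tissue helix-loop-helix factors gave 4 of 8, among them *Neurog1*, a proneural factor, with 22.3 and 29.3 in *Ezh1/2* dKO against 0 and 0.968 in *Ezh2* KO cells, and *Atoh1* with 42 and 43.5 against 2.09 and 0.968. In *Ezh2* Y726D cells *Neurog1* was at 1.78 and 5.59 and *Atoh1* at 5.35 and 3.36. Paired, LIM and sine oculis genes gave 2 of 10 (*Pitx1* and *Otx1*), Wnts 2 of 7 (*Wnt5a* and *Wnt6*), Forkhead 2 of 10, BMP, GDF, Nodal and hedgehog genes 3 of 10 (*Bmp7*, *Bmp8b* and *Dhh*), Sox 1 of 10 (*Sox11*) and GATA and T-box factors 0 of 4 and 0 of 9. Of 48 ribosomal genes none was called. Of 17 pluripotency factors 1 was, *Dppa3*, which had no HA-EZH1 peak. *Cdkn1c*, a cell cycle inhibitor, had 106 and 32.9 in *Ezh1/2* dKO against 6.27 and 5.81 in *Ezh2* KO cells, so its own *Ezh1/2* dKO libraries differed widely.

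Against WT cells, 135 of the 1036 tested HA-EZH1 genes were higher in *Ezh1/2* dKO cells and 4 lower, in all 13.4%, where over all genes 4.02% were called, 3.63% higher and 0.389% lower. Without the filter, 125 of 1739 were called (7.19%, against 2.93% of all genes). Both *Ezh1/2* dKO libraries stood above both WT libraries for 868 of them, 49.9% against 28.6% of all genes. *Hoxd13*, at 0 in both WT and both *Ezh2* KO libraries, had 33.8 and 23.1 in *Ezh1/2* dKO cells, at least 16.5-fold higher than WT. *Hoxa11* was at least 12.8-fold and *Pitx1*, a hindlimb factor, at least 12.3-fold higher than WT, with 26.4 and 17.8, and 14.8 and 27.5, in *Ezh1/2* dKO cells. The 4 lower genes were *Ina*, *Gli1*, *Dnajc22* and *Pnma2*. *Gli1*, a hedgehog target, had 41.2 and 27.5 in *Ezh1/2* dKO, 61.7 and 51.3 in *Ezh2* KO and 104 and 101 in WT cells. The calls were lost without *Ezh1/2* dKO replicate 1 and without replicate 2. The median log2 difference of the tested genes was then 0.7 and 0.8, against 0.73 with both. The 135 higher and 4 lower genes had both *Ezh1/2* dKO libraries beyond both WT libraries, so their sign could not change in these fits. The comparison shares its *Ezh1/2* dKO libraries with the one against *Ezh2* KO.

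Between *Ezh2* KO and WT cells few HA-EZH1 genes were called. Of the 1036 tested, 4 were higher and 9 lower, where over all genes 0.0937% were higher and 0.310% lower. In all 1.25% were called against 0.404% of all genes. Without the filter 4 of 1739 were called (0.230% against 0.194%). Both *Ezh2* KO libraries stood below both WT libraries for 394 of the 1739 genes, 22.7% against 16.4% of all genes, and above for 209, 12% against 16.4%. The 4 higher genes were *Tfap2a*, *Meis1*, *Meis2* and *Hmga2*. *Tfap2a*, a neural crest factor, had 170 and 179 in *Ezh2* KO against 24 and 54.9 in WT cells, and *Meis2*, a homeobox cofactor, 551 and 518 against 204 and 210. Among the lower were *Arg2*, *Cacna1s*, *Fam124a*, *Trib2* and *Cobll1*, the last at 0 in both *Ezh2* KO libraries and 14.7 and 12.5 in WT cells, at least 9-fold lower. The 13 calls became 1 without WT replicate 1 and 27 without WT replicate 2, and 3 and 1 without *Ezh2* KO replicates 1 and 2. They were also 2 without either *Ezh1/2* dKO replicate, and DESeq2 called 29, with 8 higher. The DESeq2 calls were 2.8% of the tested HA-EZH1 genes, against 1.04% of all genes. With quantile normalization 3 were higher and 2 lower, in all 0.483% against 0.245% of all genes.

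*Hoxc* genes, singled out after their values were seen, had the lowest median difference between *Ezh2* KO and *Ezh1/2* dKO cells among the Hox clusters. *Hoxc10* had 0 and 4.81 normalized counts in WT, 13.6 and 15.5 in *Ezh2* KO and 11.5 and 23.1 in *Ezh1/2* dKO cells, so the mutant lines overlapped. Its log2 difference from WT was 2.85 ± 0.79 in *Ezh1/2* dKO (limma adjusted p = 0.0994) and 2.69 ± 0.79 in *Ezh2* KO cells (limma adjusted p = 0.298). *Hoxc4* had 21.3 and 7.7 in WT, 22 and 51.3 in *Ezh2* KO and 47.8 and 75.5 in *Ezh1/2* dKO cells, with a difference of 2.13 ± 0.57 in *Ezh1/2* dKO from WT (limma adjusted p = 0.0913). The median log2 difference of the 6 tested *Hoxc* genes was 1.21 in *Ezh2* KO and 2.44 in *Ezh1/2* dKO cells against WT, and 0.58 between the mutants. For *Hoxa* these were 0.31, 4.12 and 3.58 over 6 tested genes. *Hoxc6*, *Hoxc8* and *Hoxc11* were under the filter, and the difference between clusters was not tested.

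**Figure D5:**
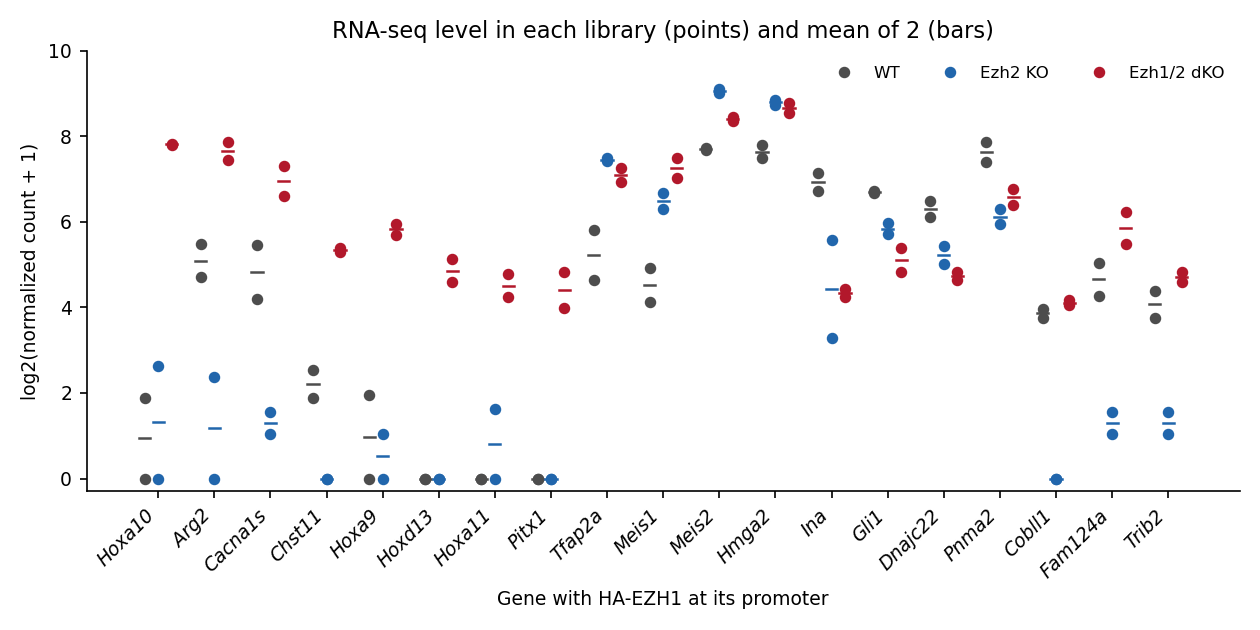
RNA-seq level, log2(normalized count + 1), of HA-EZH1 genes named in the text (horizontal axis) in WT, *Ezh2* KO and *Ezh1/2* dKO cells, with a point for each of 2 libraries and a bar mark for their mean. The *Ezh1/2* dKO libraries of *Hoxa10*, at 226 and 223 normalized counts, stand above those of both other lines, while *Tfap2a*, *Meis1*, *Meis2* and *Hmga2* are already above WT in *Ezh2* KO cells.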

How the data were processed

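ChIP-seq lists and RNA-seq values of mouse ESC lines were used, with 1 library per line and target and 2 RNA-seq libraries per line, and groups were taken from the sample labels. The authors aligned ChIP-seq reads to mm9 with Bowtie 1.2.2, dropped duplicate reads (Picard), and took peaks from MACS2 2.1.1. The deposited value used is the −log10 p of each SUZ12, H3K27me3 and H3K27ac peak, kept at a p of at most 1e-10. The deposited HA lists hold positions only. Their peak numbers run to 6587 for 4429 HA-EZH1 peaks and to 2188 for 1291 control peaks, so peaks had been removed after calling. The reads behind each ChIP-seq list are unknown. For RNA-seq, the authors aligned with TopHat 2.1.1, counted with HTSeq-count 0.8.0 and normalized with DESeq2 1.20. What was deposited is a signal, the normalized count of each gene in each library, and 100% of values were whole reads times a constant of their library within a tolerance of 0.01. Deposited tables of the authors' own comparisons hold fold changes and p-values and were not used.

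Peaks counted as shared with 1 bp of overlap. Genes were those with an HA-EZH1 peak and no control peak within 5 kb of a TSS of the NCBIM37 annotation, and 1739 of them matched the RNA-seq table. Sequences were read from that genome. log2(normalized count + 1) was fitted with limma 3.58.1 with an intensity trend over all 8 libraries and all genes with a mean of at least 5, and genes were called at a Benjamini-Hochberg adjusted p under 0.1 and a fold of at least 2. Alternatives used edgeR 4.0.16 and DESeq2 1.42.0 on recovered reads, other scalings, filters, windows and pseudocounts, and fits without each library. Python 3.11.15, pandas 2.3.3, scipy 1.17.1 and pysam 0.24.0 were used. On simulated data the overlap step found 900 of 900 made overlaps. For *Ezh1/2* dKO against *Ezh2* KO over 13846 genes of simulated data, limma found 200 of 200 genes changed 4-fold, with 7 false calls. Whether the simulated spread matches that of the real libraries was not tested. The simulated counts therefore check that the steps run and do not give the power or error of the real comparisons. The 10 widest domains, 5 widest control peaks, the study's 15 loci, the list members with most HA-EZH1 and, per direction, up to 5 called genes with the largest change and libraries that do not overlap were named. The peaks, gene lists and tests were chosen with earlier results of these data known, and the search for letters and its settings, *Hoxc* and single list members beyond the rule were chosen after their values were seen. Values of some list members are not reported here.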

Additional observations from a re-analysis of the deposited data

How the results depend on the processing

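Of the HA-EZH1 peaks, 68.9% lay on WT SUZ12, and this became 63.0% with peaks up to 1 kb apart merged, 60.2% with SUZ12 peaks at a p of at most 1e-20 and 80.4% without the peaks shared with the control. On *Ezh2* KO H3K27me3 the values were 68.8% and, in the same order, 61.9%, 66.8% and 80%. The share with a control peak rose from 15.9% to 20.1% after merging. *Ezh2* KO SUZ12 peaks with HA-EZH1 were 98.1%, and 97.3% when 50% of the peak had to be covered, 99.9% at 1e-20 and 96.5% without shared peaks. The 1986 genes became 1777 to 2361 with windows of 1 and 10 kb or control peaks kept, within 1.5 times. The letters, in windows chosen after seeing the data, stood in 11.7% to 13.0% of unshared peaks off WT SUZ12, 16.2% to 19.1% of control peaks and 0.701% to 4.01% of those on WT SUZ12, the last over whole peaks, which are longer.

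Called HA-EZH1 genes numbered 179 for *Ezh1/2* dKO against *Ezh2* KO, 139 against WT and 13 for *Ezh2* KO against WT. Quantile normalization gave 61, 86 and 5 (5.89%, 8.3% and 0.483%, against 1.27%, 3.02% and 0.245% of all genes). Only the libraries of the lines compared gave 374, 161 and 3 (36.1%, 15.5% and 0.29%, against 8.51%, 4.73% and 0.202%). edgeR gave 181, 144 and 3 (17.5%, 13.9% and 0.29%, against 3.81%, 4.09% and 0.216% of all genes). DESeq2 gave 176, 144 and 29 (17.0%, 13.9% and 2.8%, against 3.69%, 4.28% and 1.04%). A minimum mean of 20 gave 96, 94 and 10 (15.8%, 15.5% and 1.64%, against 2.26%, 3.57% and 0.412% of all genes). Without a filter there were 212, 125 and 4 (12.2%, 7.19% and 0.23%, against 3.29%, 2.93% and 0.194%). With a pseudocount of 5 there were 212, 171 and 7 (20.5%, 16.5% and 0.676%, against 4.51%, 4.97% and 0.324%). Leaving out 1 library gave 18 to 236, 0 to 175 and 1 to 27. Calls higher in *Ezh1/2* dKO outnumbered those lower under each of these settings that made any. The replicate block gave 150, 127 and 4 (14.5%, 12.3% and 0.386%, against 2.97%, 3.71% and 0.245% of all genes), but no label says that a number pairs libraries. Deviations of same-numbered libraries correlated at 0.223 to 0.288 in the 3 pairs of mutant lines, with 0.223 for *Ezh1/2* dKO and *Ezh2* KO, and at -0.409 to -0.065 in the 3 pairs with WT. A crossed block with the WT numbers exchanged, added after seeing the data, gave 247 for *Ezh1/2* dKO against WT (23.8%, against 7.75% of all genes). The cause of these changes was not tested, except that fewer genes or libraries enter some fits. With 2 libraries per line and 3604123 to 5181553 reads, genes near the filter have few reads, and the depth of the ChIP-seq lists is unknown.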
